A study of Danio rerio with 12 samples.

Results

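Larvae homozygous for a zbtb24 deletion were compared with WT larvae at 3 weeks of age. The comparison used the 3 libraries labelled zbtb24 mutant and the 3 labelled WT, which are 6 of the 12 libraries of the series, and each library was made from a pool of 10 larvae. The study crossed loss of zbtb24 with loss of mda5 to ask which transcripts change when Zbtb24 is absent and whether those changes need the RNA sensor Mda5. The zbtb24 mutants carried the mk22 allele on both chromosomes, a TALEN-made deletion that removes the coding sequence between exons 2 and 5, and had intact mda5. The other 6 libraries came from double mutants and from mda5 mutants, whose mk29 allele is a small deletion in mda5 (also called ifih1). They entered the expression filter and the estimate of spread behind every p-value of the main fit. Their levels are given only beside those of zbtb24 mutants and WT. WT larvae carried neither allele, and the background strain was AB. The labels give the source of the RNA as fin, whereas the design text describes whole larvae.

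ZBTB24 is a zinc finger protein, and its loss is one cause of ICF syndrome in people, an inherited immunodeficiency in which centromeric repeats lose DNA methylation. The other ICF genes encode the DNA methyltransferase DNMT3B, the nuclear zinc finger protein CDCA7 and the chromatin remodeller HELLS, and human ZBTB24 binds the promoter of CDCA7. Cells read long double-stranded RNA in the cytosol through Mda5, which signals through Mavs to switch on interferons, and interferons in turn switch on a large set of antiviral genes (interferon-stimulated genes, ISGs).

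The table held 32271 features in FPKM, a unit that divides the fragments of a gene by its length and by the size of the library. Features averaging under 0.5 FPKM across the series were left out, and the remaining 21623 were put on a log2(FPKM + 0.5) scale and tested with limma, fitted over all 4 genotypes. Changes are given as zbtb24 mutant minus WT on that log2 scale, which understates the change of low genes, and adjusted p-values are Benjamini-Hochberg values over all features tested. A feature was called when its adjusted p was under 0.05. Gene symbols were taken from a table that writes many zebrafish genes with their human symbol, so Ensembl identifiers are added where a symbol is shared by several genes. The number of fragments in each library is not given in the sources used here, a value of 0 can be a failed estimate, and nothing in the labels says whether the pools came from separate crosses, so p-values measure the spread between these pools.

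The libraries held transcripts of many organs. Liver (fabp10a, 1183 to 2108 FPKM in zbtb24 mutants and 1466 to 2295 FPKM in WT), pancreas (prss1), muscle (ckma), retina (GNAT2), brain (ELAVL3), heart (MYL7) and skin (krt5) markers were present in all 6 libraries, so RNA of organs beyond the fin was present and the samples are described as whole larvae. In RNA from whole larvae, fewer cells of a type and less RNA per cell cannot be told apart. The paper reports that zbtb24 mutants were smaller than wild-type siblings by about this age. The sample table gives age but no body size, and the part of size or growth stage in the changes was not tested. The zbtb24 mutant replicate 3 stood apart, with the lowest median correlation with its own group across genes (0.919, against 0.931 and 0.939 for the other zbtb24 mutant libraries and 0.945 to 0.950 for WT). Its summed collagen, cartilage and bone list was 943 FPKM, against 3586 and 3304 FPKM in the other mutant pools, and its summed proteasome list was 4295 FPKM, against 1861 and 1842 FPKM. In the 6 libraries the 4 highest features held 84.2 to 89.9% of the FPKM summed over all features. That sum was 6092790 to 9571180 FPKM in zbtb24 mutants and 10263700 to 12214500 FPKM in WT, while the median log2 level was 2.39 to 2.44. Its part in the summed lists was not tested.

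The targeted gene was examined first. ZBTB24 had 1.74, 1.396 and 1.06 FPKM in zbtb24 mutants, against 0.348, 0.510 and 0.587 FPKM in WT. Every mutant pool was above every WT pool, and ZBTB24 rose by 0.94 ± 0.15 on the log2 scale (SE, adjusted p = 0.010). The groups were also separated without Mda5, with 1.4, 1.23 and 1.47 FPKM in double mutants, against 0.469, 0.538 and 0.477 FPKM in mda5 mutants. The gene-level value counts fragments from all exons, including those outside the deletion, so it does not show whether the deleted exons were absent, and the labels could not be checked from it. By qRT-PCR in younger larvae, the paper found no detectable zbtb24 transcripts in homozygotes for this deletion. In a limma fit of the 6 compared libraries alone ZBTB24 was not called (adjusted p = 0.0699).

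CDCA7 (ENSDARG00000077620, the gene usually called cdca7a) gave the clearest single loss. It had 0.0118, 0.0676 and 0.0665 FPKM in zbtb24 mutants, against 3.48, 2.56 and 3.17 FPKM in WT. It fell by 2.70 ± 0.13 on the log2 scale (SE, adjusted p = 1.2e-05), and it kept its call in every alternative fit. The same loss was present without Mda5, with 0.0445, 0.0587 and 0.101 FPKM in double mutants, against 2.60, 2.83 and 2.53 FPKM in mda5 mutants. The change there was -2.47 ± 0.13 (SE, adjusted p = 2.9e-05), and the difference between both changes was 0.22 (adjusted p = 0.47). CDCA7 thus lay between 0.0118 and 0.101 FPKM in the 6 libraries that carry the zbtb24 deletion, against 2.53 to 3.48 FPKM in the 6 that do not. Its paralogue cdca7b had 3.42, 2.64 and 1.93 FPKM in zbtb24 mutants, against 2.75, 1.93 and 2.11 FPKM in WT, and was not called (log2 change 0.18, SE 0.18, adjusted p = 0.52).

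Of the 15 tested genes of DNA methylation and ICF, 2 were higher (13.3%, against 4.92% of all features) and 1 was lower (6.67%, near the 6.65% of all features). The 2 were the targeted gene ZBTB24 and DNMT1. DNMT1, the maintenance methyltransferase, had 7.61, 7.54 and 6.81 FPKM in zbtb24 mutants, against 4.94, 5.11 and 4.40 FPKM in WT. It rose by 0.56 ± 0.09 on the log2 scale (SE, adjusted p = 0.011), without overlap between the groups, but missed the threshold without WT replicate 3 (limma adjusted p = 0.0525). HELLS, the remodeller, had 3.68, 3.46 and 2.76 FPKM in zbtb24 mutants, against 2.66, 2.35 and 2.36 FPKM in WT, which did not pass (log2 change 0.36, SE 0.13, adjusted p = 0.10) although the groups did not overlap. UHRF1, which guides DNMT1 to replicating DNA, had a change of 0.36 ± 0.15 (SE, adjusted p = 0.14). The gene given as DNMT3B had a change of 0.11 ± 0.14 (SE, adjusted p = 0.63), and the changes of the other dnmt3 paralogues lay between -0.23 ± 0.19 (SE, adjusted p = 0.42) for DNMT3A (ENSDARG00000015566) and 0.25 ± 0.26 (SE, adjusted p = 0.55) for DNMT3A (ENSDARG00000005394). TET1, which oxidises methylcytosine, had a change of 0.56 ± 0.20 (SE, adjusted p = 0.084), tet3 had a change of 0.31 ± 0.16 (SE, adjusted p = 0.21) and TET2 had a change of 0.02 ± 0.15 (SE, adjusted p = 0.94). None of these passed.

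**Figure D1:**
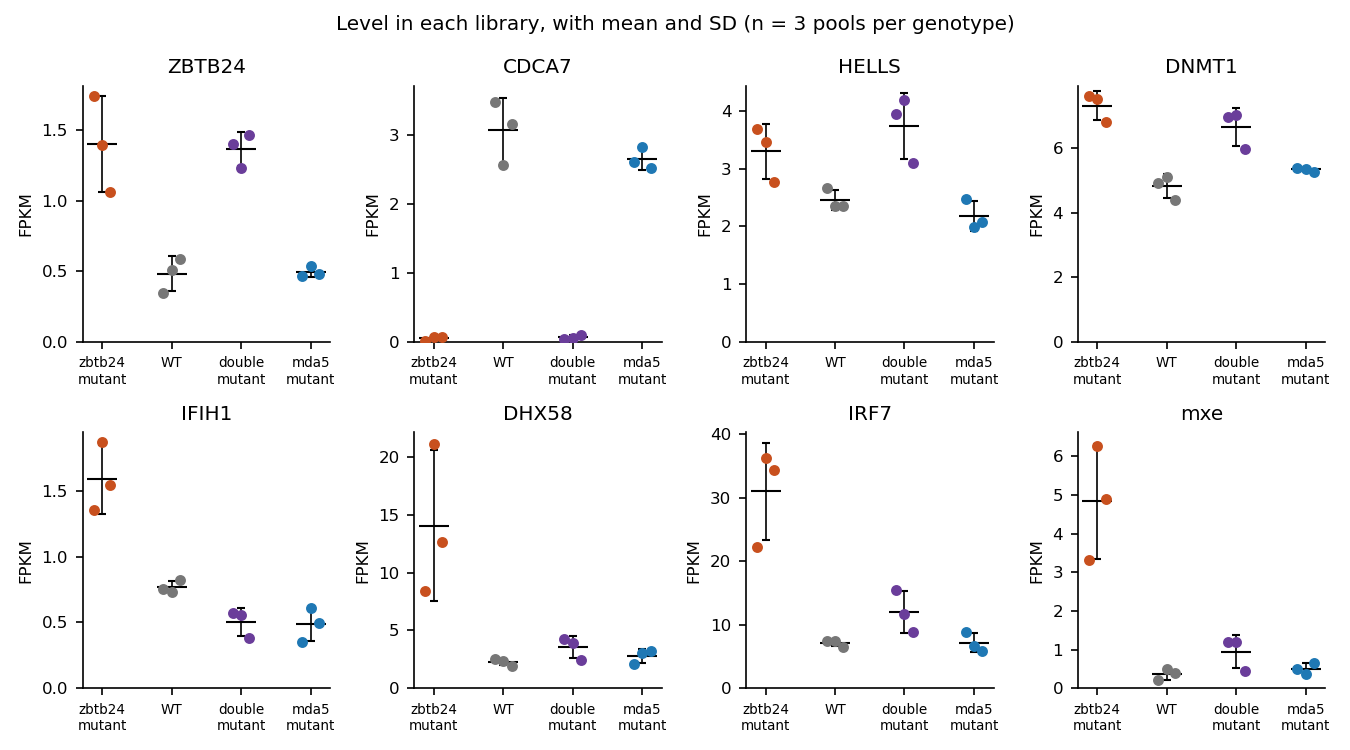
Level (FPKM, linear axis from 0) of 8 genes in each library, with zbtb24 mutants, WT, double mutants and mda5 mutants from left to right. Points are pools, and bars give the mean and SD of 3 pools. CDCA7 was near 0 in all libraries that carry the zbtb24 deletion, whereas DHX58, IRF7 and mxe were highest in zbtb24 mutants that have intact mda5.

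Across the transcriptome, 2502 of 21623 features (11.6%) were called, 1063 higher (4.92%) and 1439 lower (6.65%) in zbtb24 mutants, and 573 of them changed by at least 2-fold (220 higher, 1.02%, and 353 lower, 1.63%). Of the 2502, 2496 had groups that did not overlap, a pattern found in 3370 features higher (15.6%) and 4010 lower (18.5%) among all tested. The count depended heavily on single WT and mutant pools. It was 245 without WT replicate 3, 3477 without WT replicate 2, 744 without zbtb24 mutant replicate 2, 1018 without WT replicate 1 and 1145 without zbtb24 mutant replicate 3, and 221 when only the 6 compared libraries were fitted. All 2502 kept their direction in each of these fits, but for the 2496 with separated groups leaving out a pool could not reverse it. The fit of the 6 libraries has the same log2 changes as the main fit, so its directions could not differ either. Of 357 called genes of the groups below, 40 kept their call in every alternative fit, among them CDCA7, IRF7, mxe, DHX58, irg1l, jac8, NR1D1, nr1d4b, CRYBB2 (ENSDARG00000053512), crygm2a, hpxa, pvalb5 and spink2.2, and 69 kept it without WT replicate 3. These alternatives included the main fit with a minimum change of 2-fold, so genes that changed by less could not be among the 40. Each group count of at least 2 calls between zbtb24 mutants and WT below is followed by its value without any library whose omission moved it by more than 1.5 times. The counts over all 21623 features moved too. Features called higher numbered 444, 1915 and 124 without WT replicates 1, 2 and 3 in turn. Features called lower numbered 574, 1562 and 121 there. Without zbtb24 mutant replicates 1, 2 and 3 they numbered 840, 250 and 444 higher and 1312, 494 and 701 lower. Of the 21 group counts of 1 call, 15 became 0 without at least 1 library. In the fit of the 6 compared libraries alone, 104 features were called higher and 117 lower. Among the groups below, 11 ISGs, 5 clock genes and 0 KMT2 and CHD genes were called higher there. Called lower there were 17 beta and gamma crystallins, 1 skeletal muscle gene and 0 genes of collagen, cartilage and bone. No Hox gene, mitochondrial ribosomal protein or subunit of complex III, complex IV or ATP synthase was called lower in that fit.

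**Figure D2:**
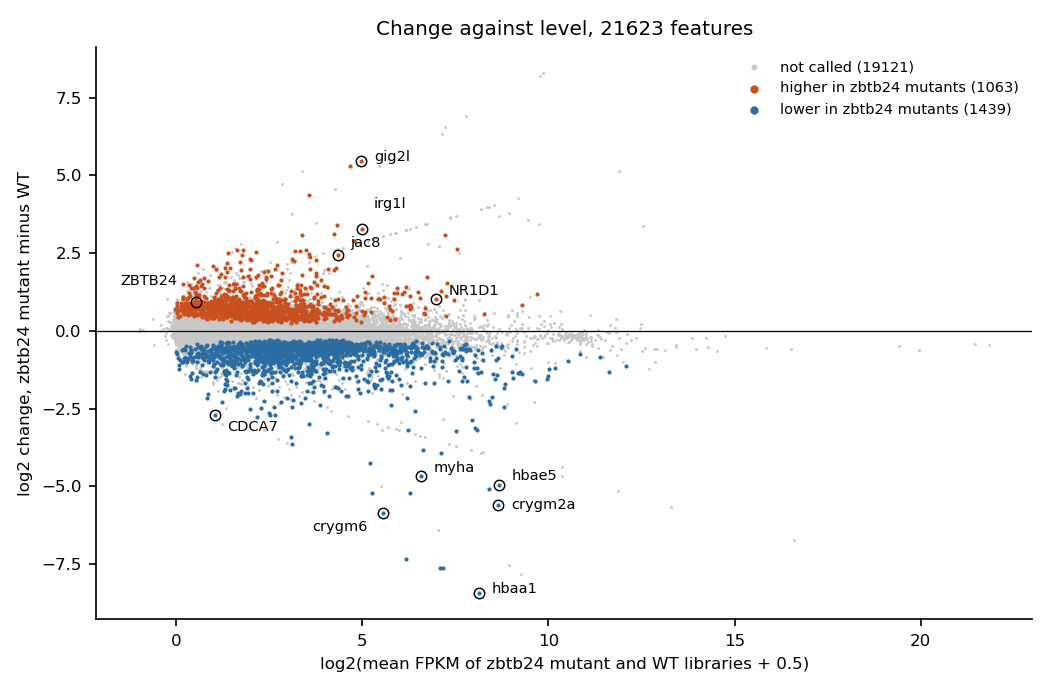
Change (zbtb24 mutant minus WT, log2) against mean level (log2 of mean FPKM + 0.5) for the 21623 features. Orange points are the 1063 features called higher and blue points the 1439 called lower, and circles mark genes described in the text. Globins, gamma crystallins and the muscle gene myha were among the called features with the largest losses, and gig2l had the highest called change among named genes.

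Interferon-stimulated genes were higher as a group. Of 54 tested ISGs, 26 rose (48.1%, against 4.92% of all features), 0 fell, and 28 did not pass. The groups did not overlap, with zbtb24 mutants higher, for 38 of 54 (15.6% of all features), and 53 of 54 changes were above 0. The median change was 0.99, against -0.0044 over all features. The summed level of the list was 726 to 928 FPKM in zbtb24 mutants and 376 to 387 FPKM in WT. Without WT replicate 3, 10 of the 54 were called, in a fit with 124 of all 21623 features called higher. Leaving out each other library left 18 to 28 of the 54.

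Transcription factors that relay and amplify interferon signals were among the genes called. IRF7, the main inducer of type I interferon genes, had 22.3, 36.3 and 34.4 FPKM in zbtb24 mutants, against 7.44, 7.38 and 6.52 FPKM in WT. Every mutant pool stood above every WT pool, and it rose by 2.02 ± 0.23 on the log2 scale (SE, adjusted p = 0.0032). The signal transducer stat2 rose by 0.76 (log2), and irf9, a DNA-binding subunit of the factor that interferon activates, had a change of 0.46 ± 0.15 (SE, adjusted p = 0.066).

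Antiviral effectors covered a wide range. The gene ifi27.2 had 18.3, 14.7 and 32.6 FPKM in zbtb24 mutants, against 4.05, 4.79 and 2.85 FPKM in WT, and rose by 2.29 ± 0.29 on the log2 scale (SE, adjusted p = 0.0044). The Mx GTPases interfere with virus replication, and mxe had 3.32, 6.27 and 4.90 FPKM in zbtb24 mutants, against 0.220, 0.501 and 0.383 FPKM in WT. It rose by 2.59 ± 0.27 on the log2 scale (SE, adjusted p = 0.0024). Of the other Mx genes, mxa rose by 2.21 (log2), mxc by 1.86 and mxf by 1.61, whereas mxb was not called. Its level was 0.413, 0.882 and 10.3 FPKM in zbtb24 mutants, against 0.0525, 0.116 and 0.0335 FPKM in WT, with one mutant pool far above the others (log2 change 2.08, SE 0.72, adjusted p = 0.080). RSAD2 (viperin), a radical enzyme that makes a chain terminator of viral RNA, had 3.92, 27.13 and 19.3 FPKM in zbtb24 mutants, against 0.922, 4.22 and 1.21 FPKM in WT. It rose by 2.57 ± 0.73 on the log2 scale (SE, adjusted p = 0.048), but zbtb24 mutant replicate 1 was below WT replicate 2, so the groups overlapped. The virus-induced gene gig2l had 60.9, 109 and 14.2 FPKM in zbtb24 mutants, against 0.959, 0.554 and 0.253 FPKM in WT. It rose by 5.46 ± 0.90 on the log2 scale (SE, adjusted p = 0.010), with a spread between mutant pools that leaves the size uncertain, and it was not called without WT replicate 3 (limma adjusted p = 0.0525).

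Genes for proteins that bind or edit RNA came next. The fish kinase pkz, which is related to PKR, rose by 1.74 (log2), the RNA-editing enzyme adar by 0.63 and the helicase ZNFX1 by 1.66, while eif2ak2 (PKR) had a change of 0.63 ± 0.21 (SE, adjusted p = 0.073). Of the ISG15 pathway, the activating enzyme uba7 rose by 1.43 (log2) and the protease usp18 by 0.89. The modifier isg15 itself had 5.33, 22.6 and 48.4 FPKM in zbtb24 mutants, against 7.01, 4.15 and 2.71 FPKM in WT, so its groups overlapped and it was not called (log2 change 1.96, SE 0.83, adjusted p = 0.13). In antigen presentation, TAP1 rose by 1.33 (log2) and tap2a by 1.1, which form the peptide transporter of MHC class I, and b2m had a change of 0.85 ± 0.31 (SE, adjusted p = 0.087). The IFIT family, which binds foreign RNA ends, was uneven, since ifit9 rose by 2.08 (log2) and the other 6 tested members were not called.

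**Figure D3:**
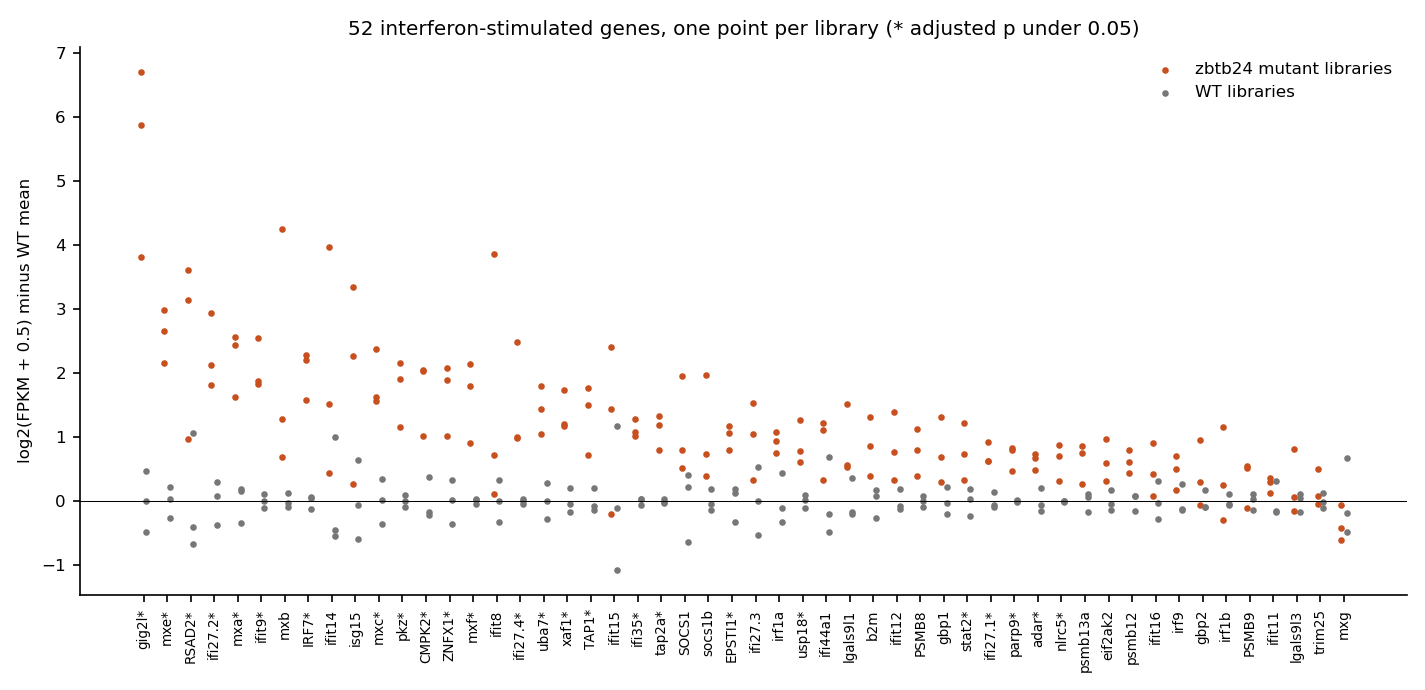
Level of 52 interferon-stimulated genes in the 3 zbtb24 mutant pools (orange, left of each pair) and the 3 WT pools (grey), as log2(FPKM + 0.5) minus the WT mean, ordered by change. Asterisks mark the 25 of them that were called. Mutant pools lay above WT pools over most of the list, and genes such as mxb, ifit8 and isg15 had one or more mutant pools far above the others.

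Sensors and signalling genes upstream of the ISGs were examined next. Of 14 tested genes of nucleic acid sensing, 2 rose (14.3%, against 4.92% of all features) and 0 fell, and 7 had an unadjusted p under 0.05 (31.4% of all features). The count was 1 without WT replicate 1, WT replicate 3 or zbtb24 mutant replicate 2. Mda5 itself (IFIH1) had 1.35, 1.87 and 1.54 FPKM in zbtb24 mutants, against 0.751, 0.732 and 0.820 FPKM in WT. It rose by 0.71 ± 0.15 on the log2 scale (SE, adjusted p = 0.021), but missed the threshold without WT replicate 1 (limma adjusted p = 0.0502), WT replicate 3 (0.0676) or zbtb24 mutant replicate 2 (0.0613). In the lines that carry the mda5 deletion the gene was at 0.573, 0.559 and 0.381 FPKM (double mutants) and 0.354, 0.613 and 0.493 FPKM (mda5 mutants). DHX58 (LGP2), a helicase that modulates Mda5, had 8.37, 21.1 and 12.7 FPKM in zbtb24 mutants, against 2.51, 2.39 and 1.96 FPKM in WT. It rose by 2.3 ± 0.30 on the log2 scale (SE, adjusted p = 0.0047). The adaptor mavs had a change of -0.05 ± 0.15 (SE, adjusted p = 0.86), and STING1 had a change of 1.13 ± 0.33 (SE, adjusted p = 0.052). Of the 5 tested interferon and receptor genes 1 passed and rose (20%, against 4.92% of all features). It was TYK2, a kinase of the interferon receptor, with 6.97, 7.62 and 6.63 FPKM in zbtb24 mutants, against 3.93, 3.77 and 3.20 FPKM in WT. It rose by 0.88 ± 0.12 on the log2 scale (SE, adjusted p = 0.0054). The interferon gene ifnphi1 was low, with 0.797, 0.326 and 0.770 FPKM in zbtb24 mutants, against 0.313, 0.310 and 0.685 FPKM in WT, and was not called (log2 change 0.27, SE 0.23, adjusted p = 0.46).

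Members of large fish families of TRIM-like and NACHT proteins, many of which carry a B30.2 domain, were also called. Of 73 tested members of the NACHT and B30.2 families, 9 rose and 0 fell (12.3%, against 4.92% of all features), and ftr96, ftr11, btr29 and ftr56, which had the smallest p-values, rose by 1.31, 1.44, 1.09 and 0.83 (log2). The count was 4 without WT replicate 3 or zbtb24 mutant replicate 2 and 5 without WT replicate 2. These genes form large families of near-identical copies, so reads may have been split between them. Among HERC ubiquitin ligases, chosen after their values were seen, herc56.2 had 2.62, 3.98 and 4.06 FPKM in zbtb24 mutants, against 0.652, 0.554 and 0.553 FPKM in WT, and rose by 1.88 ± 0.18 on the log2 scale (SE, adjusted p = 0.0014). The paralogues herc56.1 and herc56.4 rose by 1.98 (log2) and 1.71.

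Inflammatory genes were called in both directions. Of 36 tested, 6 rose (16.7%, against 4.92% of all features) and 3 fell (8.33%, near the 6.65% of all features). The cytokine-like hormone lepb had 3.95, 1.72 and 3.03 FPKM in zbtb24 mutants, against 0.443, 0.282 and 0.782 FPKM in WT, and rose by 1.74 ± 0.32 on the log2 scale (SE, adjusted p = 0.015). One copy of PTGS2 (ENSDARG00000010276), the inducible enzyme of prostaglandin synthesis, had 11.2, 15.1 and 10.1 FPKM in zbtb24 mutants, against 4.69, 6.06 and 5.76 FPKM in WT, and rose by 1.06 ± 0.20 on the log2 scale (SE, adjusted p = 0.016). The soluble interleukin 22 receptor il22ra2 rose by 1.28 (log2), the chemokines cxcl19 and ccl20a.3 by 1.14 and 0.80, and NOS2, which makes nitric oxide, by 1.11. The neutrophil chemokines cxcl8a and cxcl8b.1 fell by 0.92 (log2) and 1.09, and the matrix protease MMP14 (ENSDARG00000008388) by 0.80. The cytokine il1b had a change of 0.70 ± 0.24 (SE, adjusted p = 0.075). The 6 became 1 without WT replicate 3 and 3 without zbtb24 mutant replicate 2, and the 3 became 0 without WT replicate 1, WT replicate 3 or zbtb24 mutant replicate 2 and 1 without zbtb24 mutant replicate 3.

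Leukocyte markers were called at shares near those of all features. Of 28 tested neutrophil and macrophage markers, 2 rose (7.14%, against 4.92%) and 1 fell (3.57%, against 6.65%), and the 2 became 0 without WT replicate 3 and 1 without WT replicate 1, WT replicate 2, zbtb24 mutant replicate 2 or zbtb24 mutant replicate 3. The median change was 0.19, 17 of 28 changes were above 0, and the groups were separated for 5 higher (15.6% of all features) and 2 lower (18.5%). The summed level of the list was 1401 to 1955 FPKM in zbtb24 mutants and 2406 to 3315 FPKM in WT, but without its most abundant member, apoc1, it was 703 to 765 FPKM in zbtb24 mutants and 572 to 996 FPKM in WT. One copy of MPEG1 (ENSDARG00000043093), a pore-forming protein of macrophages, had 51.4, 34.6 and 53.6 FPKM in zbtb24 mutants, against 23.7, 16.2 and 17.7 FPKM in WT, and rose by 1.25 ± 0.22 on the log2 scale (SE, adjusted p = 0.014). CEBPB rose by 0.79 (log2), and the lipoprotein gene apoc1, a fish macrophage-associated gene that liver also expresses, fell by 0.97. Of 19 lymphocyte markers, 0 were called in limma, 7 had an unadjusted p under 0.05 (31.4% of all features), and the groups were separated for 1 higher (15.6% of all features) and 6 lower (18.5%). The median of the list was -0.43, and -0.17 without zbtb24 mutant replicate 3. RAG1 had 9.67, 12.9 and 4.64 FPKM in zbtb24 mutants, against 11.6, 12.4 and 11.3 FPKM in WT (log2 change -0.46, SE 0.30, adjusted p = 0.31), and the T-cell coreceptor gene cd8b had a change of -0.92 ± 0.28 (SE, adjusted p = 0.056). Whether the share of macrophages had a part in the rise of immune genes was not tested.

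Some genes outside the lists were named for the size of their rise, and several were also high in double mutants. The gene irg1l, whose relative in mammals makes the antimicrobial metabolite itaconate, had 64.8, 53.04 and 51.3 FPKM in zbtb24 mutants, against 8.55, 3.02 and 5.82 FPKM in WT. It rose by 3.27 ± 0.41 on the log2 scale (SE, adjusted p = 0.0044), and without Mda5 it had 33.3, 49.2 and 41.1 FPKM in double mutants, against 7.49, 15.4 and 4.40 FPKM in mda5 mutants. The jacalin-like lectin jac8 had 37.7, 31.2 and 32.4 FPKM in zbtb24 mutants, against 6.37, 5.03 and 5.98 FPKM in WT. It rose by 2.44 ± 0.35 on the log2 scale (SE, adjusted p = 0.0070), and in double against mda5 mutants the change was 3.22 ± 0.35 (SE, adjusted p = 0.0050). Its relative jac9 rose by 1.88 (log2), with 2.45 ± 0.24 (SE, adjusted p = 0.0034) in double against mda5 mutants. The apoptosis inhibitor FAIM2 had 8.57, 8.41 and 11.8 FPKM in zbtb24 mutants, against 1.87, 2.13 and 2.05 FPKM in WT, and rose by 1.99 ± 0.21 on the log2 scale (SE, adjusted p = 0.0026). The gene urgcp, whose human counterpart is upregulated in hepatitis B virus infection, rose by 2.56 (log2), and the relaxin-family hormone gene rln3a by 2.59. The gene ngs (notochord granular surface) had 25.3, 24.7 and 29.9 FPKM in zbtb24 mutants, against 5.68, 5.61 and 7.66 FPKM in WT, and rose by 2.0 ± 0.28 on the log2 scale (SE, adjusted p = 0.0071).

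Crystallin transcripts were lower. Crystallins are the refractive proteins of lens fibre cells, and fish carry an expanded set of gamma-M crystallins. Of 51 tested genes matched by a beta or gamma crystallin name, a family taken up after its values were seen, 31 fell and 1 rose (60.8% lower, against 6.65% of all features), with a median change of -1.38. The 51 include crybg1a and crybg1b, which are not lens crystallins. The summed family was 4503 to 5836 FPKM in zbtb24 mutants and 11220.5 to 19895 FPKM in WT. The gamma crystallin crygm2a had 28.5, 8.92 and 15.3 FPKM in zbtb24 mutants, against 845, 669 and 847 FPKM in WT, and fell by 5.59 ± 0.50 on the log2 scale (SE, adjusted p = 0.00096). CRYBB2 (ENSDARG00000053512), a beta crystallin, had 7.13, 3.04 and 1.92 FPKM in zbtb24 mutants, against 145, 132 and 174 FPKM in WT, and fell by 5.22 ± 0.38 on the log2 scale (SE, adjusted p = 0.00034). The gamma crystallins crygm6 and crygm2e fell by 5.85 and 5.07 (log2). Other members fell by less. CRYBA4, an abundant member, had 519, 429 and 536 FPKM in zbtb24 mutants, against 1880.0, 954 and 1625 FPKM in WT, and fell by 1.54 (log2). The member that rose was CRYGS (ENSDARG00000042992), with 5.39, 4.41 and 1.89 FPKM in zbtb24 mutants, against 0.629, 1.45 and 0.853 FPKM in WT and a change of 1.51 ± 0.43 (SE, adjusted p = 0.046). Of the alpha crystallins, CRYAA had 21.1, 30.3 and 46.0 FPKM in zbtb24 mutants, against 107, 68.4 and 81.4 FPKM in WT, and fell by 1.43 (log2). Gamma-M crystallin genes are close copies of each other, so their single values are uncertain. The 31 became 12 without WT replicate 3, 13 without zbtb24 mutant replicate 2, 15 without WT replicate 1, and 17 without zbtb24 mutant replicate 3. Without WT replicate 3, 121 of all 21623 features were called lower.

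Beta and gamma crystallins were also low without Mda5. In double against mda5 mutants, 39 of the same 51 genes were separated and lower (9.15% of all features), 7 were called in either direction (0.134% of all features), and the median was -1.59. There crygm2a had 5.80, 19.2 and 18.8 FPKM in double mutants, against 224, 304 and 511 FPKM in mda5 mutants, and CRYBB2 (ENSDARG00000053512) had 2.59, 3.43 and 4.85 FPKM in double mutants, against 63.7, 58.1 and 101 FPKM in mda5 mutants. For crygm2a the difference between both changes was 0.98 (adjusted p = 0.41), and for CRYBB2 it was 1.04 (adjusted p = 0.25).

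Photoreceptor genes were lower too. Of 62 tested genes of phototransduction and lens, which include some crystallins, 17 fell (against 6.65% of all features) and 1 rose, and in double against mda5 mutants 33 were separated and lower (9.15% of all features). GNAT1, the transducin of rods, had 19.9, 21.3 and 10.9 FPKM in zbtb24 mutants, against 52.1, 68.0 and 66.0 FPKM in WT, and fell by 1.85 ± 0.31 on the log2 scale (SE, adjusted p = 0.011). The green cone opsin opn1mw3 had 2.13, 2.04 and 0.140 FPKM in zbtb24 mutants, against 7.79, 10.7 and 12.4 FPKM in WT, and fell by 2.71 ± 0.65 on the log2 scale (SE, adjusted p = 0.029). The lens filament gene BFSP1 fell by 1.44 (log2) and the lens water channel MIP (ENSDARG00000037285) by 1.28. The gene pde6ha, a phosphodiesterase subunit of cones, was the one that rose, by 1.01 (log2). The 17 became 2 without WT replicate 3, 5 without WT replicate 1, and 6 without zbtb24 mutant replicate 2 or zbtb24 mutant replicate 3. Of 55 genes of neurons, glia and myelin, TPH2, an enzyme of serotonin synthesis, rose by 0.85 (log2) and mbpb, a myelin gene, fell by 0.97. Each was the only call in its direction (1.82%, against 4.92% higher and 6.65% lower over all features). Without WT replicate 2, 15 of the 55 were called higher, in a fit with 1915 of all 21623 features called higher.

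Some globin genes were nearly absent from zbtb24 mutants, and others were not. Of 13 genes matched by the start of a globin name, a list made after its values were seen, 5 fell (38.5%, against 6.65% of all features) and 0 rose. The 13 include HBEGF and hbegfa, growth factor genes that are not globins, and the 5 that fell are all globins. The 5 became 0 without WT replicate 3 and 3 without WT replicate 1, zbtb24 mutant replicate 2 or zbtb24 mutant replicate 3. The alpha globin hbaa1 had 7.92, 0.157 and 0.154 FPKM in zbtb24 mutants, against 321, 671 and 689 FPKM in WT, and it fell by 8.43 ± 1.53 on the log2 scale (SE, adjusted p = 0.014). One of the globin genes with the symbol HBE1 (ENSDARG00000089087) had 4.602, 0.117 and 0.163 FPKM in zbtb24 mutants, against 146, 344 and 313 FPKM in WT. Another (ENSDARG00000097238) had 1.54, 0 and 0.0851 FPKM in zbtb24 mutants, against 81.2, 175 and 169.5 FPKM in WT. Both were called, and all mutant pools were below all WT pools. The larval alpha globin hbae5 had 90.7, 9.70 and 12.6 FPKM in zbtb24 mutants, against 789, 379 and 1183 FPKM in WT, and fell by 4.94 ± 1.03 on the log2 scale (SE, adjusted p = 0.020). The embryonic globin hbae3 went the other way, with 203, 267 and 206 FPKM in zbtb24 mutants, against 73.0, 13.9 and 35.3 FPKM in WT. Every mutant pool was above every WT pool, but it was not called (log2 change 2.73, SE 0.99, adjusted p = 0.090). A further copy, hbae1.2, overlapped between the groups (log2 change 0.04, SE 0.59, adjusted p = 0.97). These loci hold near-identical copies, so the split of reads between them is uncertain. The level also varied widely between pools of the other genotypes, with hbaa1 at 156, 6.75 and 2.88 FPKM in double mutants, against 23.8, 37.3 and 443 FPKM in mda5 mutants, so pools differed by over 10-fold within a genotype. Without WT replicate 3, hbaa1 was not called (limma adjusted p = 0.0626).

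Other genes of the red cell list fell by less than hbaa1 and hbae5. Of 15 tested erythroid genes, a list that includes 6 globins, 6 fell (40%, against 6.65% of all features) and 0 rose. Beside hbaa1 and hbae5 these were alas2, SLC4A1, the erythroid transcription factor gata1a, which fell by 0.60 (log2), and the membrane skeleton gene epb41b, which fell by 0.81. The enzyme alas2, which starts haem synthesis in red cells, had 7.80, 5.84 and 2.90 FPKM in zbtb24 mutants, against 17.7, 12.7 and 23.7 FPKM in WT, and fell by 1.67 ± 0.32 on the log2 scale (SE, adjusted p = 0.016). The red cell anion exchanger SLC4A1 (ENSDARG00000012881) had 4.16, 4.55 and 3.95 FPKM in zbtb24 mutants, against 11.5, 7.92 and 8.31 FPKM in WT, and fell by 1.03 ± 0.22 on the log2 scale (SE, adjusted p = 0.022). The summed list, globins included, was 277 to 447 FPKM in zbtb24 mutants and 1136 to 2048 FPKM in WT. The haem scavenger hemopexin, hpxa, had 3.13, 1.45 and 0.215 FPKM in zbtb24 mutants, against 40.6, 139.7 and 43.7 FPKM in WT, and fell by 5.21 ± 0.83 on the log2 scale (SE, adjusted p = 0.0093). The 6 became 0 without WT replicate 3 and 2 without WT replicate 1, zbtb24 mutant replicate 2 or zbtb24 mutant replicate 3.

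Skeletal matrix genes formed another group that fell. Of 59 tested genes of collagen, cartilage and bone, 19 fell (32.2%, against 6.65% of all features) and 2 rose (3.39%, against 4.92%), with a median change of -0.98. The type I collagen gene COL1A2 had 219, 183 and 29.8 FPKM in zbtb24 mutants, against 346, 557 and 695 FPKM in WT, and fell by 2.26 ± 0.64 on the log2 scale (SE, adjusted p = 0.048). COL10A1 (ENSDARG00000101535), a collagen of skeletogenic cells, fell by 2.3 (log2), the bone protein bglap (osteocalcin) by 2.16, and lumican, LUM, which organises collagen fibrils, by 2.17. The collagen-modifying enzymes had less spread between pools. LOX, which cross-links collagen, had 9.10, 8.67 and 11.0 FPKM in zbtb24 mutants, against 19.3, 16.2 and 25.1 FPKM in WT, and fell by 1.02 ± 0.19 on the log2 scale (SE, adjusted p = 0.015), P4HA1, a prolyl hydroxylase, fell by 0.88, and both genes called SERPINH1 (HSP47), a collagen chaperone counted among heat shock genes, fell by 1.71 (ENSDARG00000019949) and 1.05 (ENSDARG00000075954). The aggrecan genes acana and acanb, of cartilage, rose by 0.99 (log2) and 1.23. The mineralisation gene scpp7, picked out after its values were seen, had 2.31, 0.558 and 0.0835 FPKM in zbtb24 mutants, against 9.38, 15.6 and 21.1 FPKM in WT, and fell by 3.65 ± 0.63 on the log2 scale (SE, adjusted p = 0.013). The summed list was lowest in zbtb24 mutant replicate 3, and the 19 became 1 without WT replicate 3, 5 without zbtb24 mutant replicate 2, 7 without WT replicate 1, 8 without WT replicate 2, and 11 without zbtb24 mutant replicate 3. The 2 became 0 without WT replicate 3 or zbtb24 mutant replicate 2 and 1 without WT replicate 2, zbtb24 mutant replicate 1 or zbtb24 mutant replicate 3. Without zbtb24 mutant replicate 3 the median of the list was -0.51. When only the 6 compared libraries were fitted, 0 genes of the list were called.

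Positional genes were lower in part. Of 46 tested Hox genes, taken up after their values were seen, 16 fell and 0 rose (34.8%, against 6.65% of all features). Changes were above 0 for 11 of the 46, and groups were separated for 3 higher (15.6% of all features) and 21 lower (18.5%). In double against mda5 mutants 12 were separated and higher (12% of all features) and 0 lower (9.15%). All 16 belong to paralogue groups 6 to 13, which pattern the trunk, tail and distal fin. Other tested members of these groups, such as HOXB13 and HOXC10, were not called. HOXD11 had 4.16, 4.11 and 4.85 FPKM in zbtb24 mutants, against 7.68, 7.12 and 8.21 FPKM in WT, and fell by 0.75 ± 0.09 on the log2 scale (SE, adjusted p = 0.0044). The gene hoxa13b had 3.39, 2.45 and 1.92 FPKM in zbtb24 mutants, against 5.82, 4.86 and 6.23 FPKM in WT, and fell by 1.01 ± 0.16 on the log2 scale (SE, adjusted p = 0.0091). The 16 became 3 without WT replicate 3, 6 without WT replicate 1, 8 without zbtb24 mutant replicate 2, and 10 without zbtb24 mutant replicate 3. When only the 6 compared libraries were fitted, 0 Hox genes were called.

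Muscle genes fell in part. Of 56 tested skeletal muscle genes, 13 fell (23.2%, against 6.65% of all features) and 0 rose, and 52 of 56 changes were below 0. The median of -0.56 became -0.30 without zbtb24 mutant replicate 3 and -0.34 after quantile normalization. The summed list was 48397 FPKM in that replicate, against 84518 and 85798 FPKM in the other mutant pools and 89244 to 122195 FPKM in WT. The myosin heavy chain myha had 8.68, 7.11 and 2.84 FPKM in zbtb24 mutants, against 72.5, 298 and 179 FPKM in WT, and fell by 4.68 ± 0.88 on the log2 scale (SE, adjusted p = 0.015). A fast troponin I, TNNI2 (ENSDARG00000013752), had 23.7, 24.5 and 5.81 FPKM in zbtb24 mutants, against 136, 382 and 252 FPKM in WT, and fell by 3.92 ± 0.76 on the log2 scale (SE, adjusted p = 0.016). The parvalbumin pvalb3 fell by 2.86 (log2). The myogenic factors MYOG and MYOD1 fell by 1.18 (log2) and 0.70. The calcium buffer pvalb5, a parvalbumin, varied little between pools, with 8.20, 8.96 and 7.92 FPKM in zbtb24 mutants, against 42.3, 29.7 and 41.9 FPKM in WT, and fell by 2.1 ± 0.16 on the log2 scale (SE, adjusted p = 0.00034). The creatine kinase gene ckma, the marker used to check for muscle RNA, was at 3381 to 3652 FPKM in zbtb24 mutants and 3151 to 4397 FPKM in WT. The 13 became 0 without WT replicate 3 and 4 without WT replicate 1. With only the 6 compared libraries fitted, 1 skeletal muscle gene was called lower. Of 17 heart genes 4 fell (23.5%), among them HAND2, a transcription factor of heart and fin, with 5.54, 3.97 and 4.41 FPKM in zbtb24 mutants, against 9.72, 7.76 and 7.96 FPKM in WT, and it fell by 0.81 ± 0.13 on the log2 scale (SE, adjusted p = 0.0091). These 4 became 1 without WT replicate 3 and 2 without WT replicate 1, zbtb24 mutant replicate 2 or zbtb24 mutant replicate 3.

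Subunits of the respiratory chain that are encoded in the nucleus fell together. Of 48 tested complex I genes, 35 fell and 0 rose (72.9%, against 6.65% of all features), with groups separated and lower for 41 (18.5% of all features) and a median change of -0.60. After quantile normalization that median was -0.47. NDUFA10 had 65.6, 61.5 and 50.3 FPKM in zbtb24 mutants, against 94.6, 104 and 126 FPKM in WT, and fell by 0.86 ± 0.13 on the log2 scale (SE, adjusted p = 0.0089). Another subunit, ndufc1, had 35.7, 31.8 and 32.2 FPKM in zbtb24 mutants, against 54.9, 56.7 and 82.3 FPKM in WT, and fell by 0.93 ± 0.15 on the log2 scale (SE, adjusted p = 0.0099). A further subunit, ndufc2, fell by 1.02 (log2). Of 47 genes of complex III, complex IV and ATP synthase, looked at after the complex I values were seen, 27 fell (57.4%), 0 rose and all 47 were below 0. The median of the 47 was -0.57, and -0.28 after quantile normalization. The 27 became 2 without WT replicate 3, 3 without zbtb24 mutant replicate 2, 6 without zbtb24 mutant replicate 3, and 12 without WT replicate 1. Of 73 mitochondrial ribosomal proteins, also added then, 13 fell (17.8%), and these became 1 without WT replicate 3, 2 without zbtb24 mutant replicate 2, 6 without zbtb24 mutant replicate 3, and 8 without WT replicate 1. Of the 13 genes of the mitochondrial genome 0 were called in limma and 4 had an unadjusted p under 0.05 (31.4% of all features). All 13 changes were below 0, and 5 were separated and lower (18.5% of all features). Their median of -0.42 became -0.08 without zbtb24 mutant replicate 3 and -0.15 after quantile normalization.

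The 35 complex I calls became 3 without WT replicate 3, 12 without zbtb24 mutant replicate 2, 16 without zbtb24 mutant replicate 3, and 19 without WT replicate 1, and 0 were called when only the 6 compared libraries were fitted. In double against mda5 mutants the median of the 48 was 0.05, 1 was separated and higher (12% of all features) and 1 separated and lower (9.15%). There 0 were called in limma and 1 had an unadjusted p under 0.05 (share over all features not computed). For NDUFA10 the difference between both changes was 0.76 (adjusted p = 0.10). Cytosolic ribosomal proteins had a median of -0.19 in zbtb24 mutants against WT, which became 0.02 after quantile normalization, and the 1 of 90 matched genes that was called, RPS6KA5, is a kinase that shares only the start of its name with the family.

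Clock genes were higher. The clock is a feedback loop in which CLOCK and BMAL1 drive PER, CRY and NR1D genes that repress them. Of 42 tested clock genes, 16 rose (38.1%, against 4.92%) and 0 fell. NR1D1 had 168, 161 and 182 FPKM in zbtb24 mutants, against 87.5, 69.0 and 94.2 FPKM in WT, and rose by 1.03 ± 0.15 on the log2 scale (SE, adjusted p = 0.0081). The related repressor nr1d4b had 59.9, 60.2 and 58.1 FPKM in zbtb24 mutants, against 32.6, 27.7 and 27.5 FPKM in WT, and rose by 1.01 ± 0.11 on the log2 scale (SE, adjusted p = 0.0026). PER1 (ENSDARG00000012499) had 10.6, 11.4 and 14.9 FPKM in zbtb24 mutants, against 5.44, 4.96 and 4.53 FPKM in WT, and rose by 1.21 ± 0.15 on the log2 scale (SE, adjusted p = 0.0045), and dbpb, a PAR-domain factor that the clock drives, rose by 1.1. Of the activators, BMAL1 (ENSDARG00000035732) rose by 0.43 (log2) and CLOCK (ENSDARG00000011703) by 0.75. NR1D1 was at 148, 167 and 162 FPKM in double mutants and 177, 159 and 123 FPKM in mda5 mutants, which overlap the zbtb24 mutants. The summed clock list was 1367 to 1496 FPKM in zbtb24 mutants and 961 to 1122 FPKM in WT, and 1300.5 to 1483 FPKM in double mutants and 1142 to 1279 FPKM in mda5 mutants, so the mda5 mutant pools lay between those of zbtb24 mutants and WT. Clock transcripts depend on the hour of sampling, which the labels do not give, and its part in these differences was not tested. The 16 became 4 without WT replicate 3, 7 without zbtb24 mutant replicate 2 or zbtb24 mutant replicate 3, and 9 without WT replicate 1.

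Chromatin genes of the KMT2 and CHD families, chosen after their values were seen, rose by small amounts. Of 18 tested, 10 rose and 0 fell (55.6%, against 4.92%). The histone methyltransferase kmt2a had 10.8, 12.03 and 14.8 FPKM in zbtb24 mutants, against 6.97, 7.40 and 5.66 FPKM in WT, and rose by 0.86 ± 0.13 on the log2 scale (SE, adjusted p = 0.0082). The 10 became 1 without WT replicate 3, 2 without zbtb24 mutant replicate 2, 3 without zbtb24 mutant replicate 3, and 5 without WT replicate 1. With only the 6 compared libraries fitted, 0 of these chromatin genes were called. Of 64 genes of DNA replication and mitosis, the helicase subunit MCM4 rose by 0.67 (log2), the polymerase genes POLE, POLA1 and POLD1 rose by 0.51, 0.54 and 0.53, and the cyclin CCNE1 fell by 0.58. The 4 that rose (6.25%, near the 4.92% of all features) became 0 without WT replicate 1 or WT replicate 3 and 1 without zbtb24 mutant replicate 1 or zbtb24 mutant replicate 2. In double against mda5 mutants 28 of the 64 were separated and higher (12% of all features), and 0 were called in limma. An unadjusted p under 0.05 was found for 27, a count for which the share over all features was not computed. The median was 0.37, against -0.01 in zbtb24 mutants against WT. Of 30 genes of the p53 pathway, the death receptor fas rose by 0.74 (log2) and the metabolic regulator tigara fell by 0.58. Each was the only call in its direction (3.33%, against 4.92% higher and 6.65% lower over all features).

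Liver and gut transcripts were lower in part. Of 57 genes of liver secretion and lipid transport, 10 fell (17.5%, against 6.65% of all features) and 1 rose (1.75%, against 4.92%), and 50 of 57 changes were below 0. The median of -0.68 became -0.36 without zbtb24 mutant replicate 3 and -0.42 after quantile normalization. The fibrinogen chain FGB had 171, 171 and 138 FPKM in zbtb24 mutants, against 273, 388 and 469.7 FPKM in WT, and fell by 1.21 ± 0.24 on the log2 scale (SE, adjusted p = 0.017). The chain FGG fell by 1.01 (log2), the clotting factor F9 by 1.06, and apoc4 by 1.92. The retinol carrier rbp4l was the one that rose, with 223, 191 and 206 FPKM in zbtb24 mutants, against 90.3, 82.1 and 117 FPKM in WT, and it rose by 1.11 ± 0.19 on the log2 scale (SE, adjusted p = 0.013). The 10 became 0 without WT replicate 3, 3 without zbtb24 mutant replicate 3, 5 without zbtb24 mutant replicate 2, and 6 without WT replicate 1. Of 32 genes of intestinal absorption 4 fell (12.5%), and these became 1 without zbtb24 mutant replicate 3 and 2 without WT replicate 1, WT replicate 2, WT replicate 3, zbtb24 mutant replicate 1 or zbtb24 mutant replicate 2. The neutral amino acid transporter SLC6A19 (ENSDARG00000056719) fell by 0.96 (log2) and the peptide transporter SLC15A1 (ENSDARG00000100315) by 1.16. The fatty acid carrier fabp1b.2 had 6.56, 6.13 and 0.0471 FPKM in zbtb24 mutants, against 22.7, 60.03 and 122 FPKM in WT. It fell by 4.24 ± 1.09 on the log2 scale (SE, adjusted p = 0.036), a size that rests on pools spread over orders of magnitude. Of 33 exocrine pancreas genes the elastase cela1.4 rose by 1.14 (log2) and 0 fell. It was the only call of that list (3.03% higher, against 4.92% of all features).

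Skin genes were lower in part. Of 41 genes of keratins and epithelium, 9 fell (22%, against 6.65% of all features) and 2 rose (4.88%, near the 4.92% of all features). The keratin krt1-19d had 24.2, 28.4 and 17.4 FPKM in zbtb24 mutants, against 80.0, 77.3 and 103 FPKM in WT, and fell by 1.89 ± 0.33 on the log2 scale (SE, adjusted p = 0.013). ANXA2 (ENSDARG00000003216), a membrane-binding annexin, had 23.7, 28.3 and 17.1 FPKM in zbtb24 mutants, against 53.6, 62.3 and 91.7 FPKM in WT, and fell by 1.56 ± 0.24 on the log2 scale (SE, adjusted p = 0.0085). The junction genes DSP (ENSDARG00000022309), PKP1 and JUP (ENSDARG00000070787) fell by 0.83 (log2), 0.76 and 0.52, and TP63, the master factor of basal epidermis, by 0.79. The keratins cyt1 and cyt1l rose by 1.53 (log2) and 2.36. The secreted protease inhibitors of the spink2 family, picked out after their values were seen, were separated and lower in zbtb24 mutants for 11 of 11 (18.5% of all features), and 8 fell (72.7%, against 6.65%), a count that became 3 without WT replicate 3 and 4 without WT replicate 1. Among them spink2.2 had 0.238, 0.232 and 0 FPKM in zbtb24 mutants, against 2.002, 2.56 and 2.60 FPKM in WT, and fell by 2.15 ± 0.19 on the log2 scale (SE, adjusted p = 0.00096). The 9 epithelial genes became 1 without WT replicate 3, 4 without WT replicate 1 or zbtb24 mutant replicate 2, and 5 without zbtb24 mutant replicate 3, and the 2 became 0 without WT replicate 3, zbtb24 mutant replicate 1 or zbtb24 mutant replicate 2 and 1 without WT replicate 1, WT replicate 2 or zbtb24 mutant replicate 3.

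Of 20 genes of the pituitary and growth axis, 2 rose (10%, against 4.92% of all features) and 3 fell (15%, against 6.65%). The growth factor igf2a fell by 0.80 (log2), the glycoprotein hormone subunit CGA by 0.97 and igfbp6b by 0.67, whereas the receptors IGF1R (ENSDARG00000027423) and ghra rose by 0.76 and 0.61. The 2 became 0 without WT replicate 3 and 1 without WT replicate 2, zbtb24 mutant replicate 1, zbtb24 mutant replicate 2 or zbtb24 mutant replicate 3, and the 3 became 1 without WT replicate 1, WT replicate 3 or zbtb24 mutant replicate 2. In the glucose, cholesterol, chaperone, immediate early, protocadherin, proteasome and pigment lists 0 to 6.98% of the members rose and 0 to 7.89% fell, against 4.92% and 6.65% of all features. Of 27 genes of glucose control, IRS2 (ENSDARG00000075282), an adaptor of insulin signalling, had 25.2, 24.7 and 38.4 FPKM in zbtb24 mutants, against 14.1, 12.1 and 17.1 FPKM in WT, and rose by 0.99 ± 0.17 on the log2 scale (SE, adjusted p = 0.013), and the gluconeogenic genes g6pc1a.1 and pck2 fell by 1.29 and 0.87 (log2), a count of 2 that became 0 without WT replicate 1, WT replicate 3 or zbtb24 mutant replicate 2 and 1 without zbtb24 mutant replicate 1 or zbtb24 mutant replicate 3. Of 32 cholesterol synthesis genes, NSDHL and HSD17B7 fell by 0.50 (log2) and 0.81, a count that became 0 without WT replicate 1, WT replicate 3 or zbtb24 mutant replicate 2 and 1 without WT replicate 2 or zbtb24 mutant replicate 1. Of 43 chaperones 3 rose (1 without WT replicate 1 or WT replicate 3) and 3 fell (0 without WT replicate 3 and 1 without WT replicate 1), with the inducible hsp70.3 at 1.94, 1.71 and 0.803 FPKM in zbtb24 mutants, against 0.203, 0.211 and 0.283 FPKM in WT. Of 32 immediate early factors, FOSL1 and KLF9 rose by 1.45 (log2) and 1.27, a count of 2 that became 0 without WT replicate 3, zbtb24 mutant replicate 2 or zbtb24 mutant replicate 3 and 1 without WT replicate 1, and klf2b fell by 0.63. Protocadherins, neuronal adhesion proteins, gave 1 call of 44, and 16 without WT replicate 2, in a fit with 1915 of all 21623 features called higher. Proteasome subunits gave 1 call of 47, and their median of 0.10 became -0.28 without zbtb24 mutant replicate 3. Pigment cell genes gave 2 higher (0 without WT replicate 3, zbtb24 mutant replicate 2 or zbtb24 mutant replicate 3 and 1 without WT replicate 1 or zbtb24 mutant replicate 1) and 3 lower (0 without WT replicate 3) of 38. Germ cell genes gave 0 calls of 11 and gimap and irg GTPases 0 of 5 in limma, with 1 and 0 at an unadjusted p under 0.05 (31.4% of all features).

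**Figure D4:**
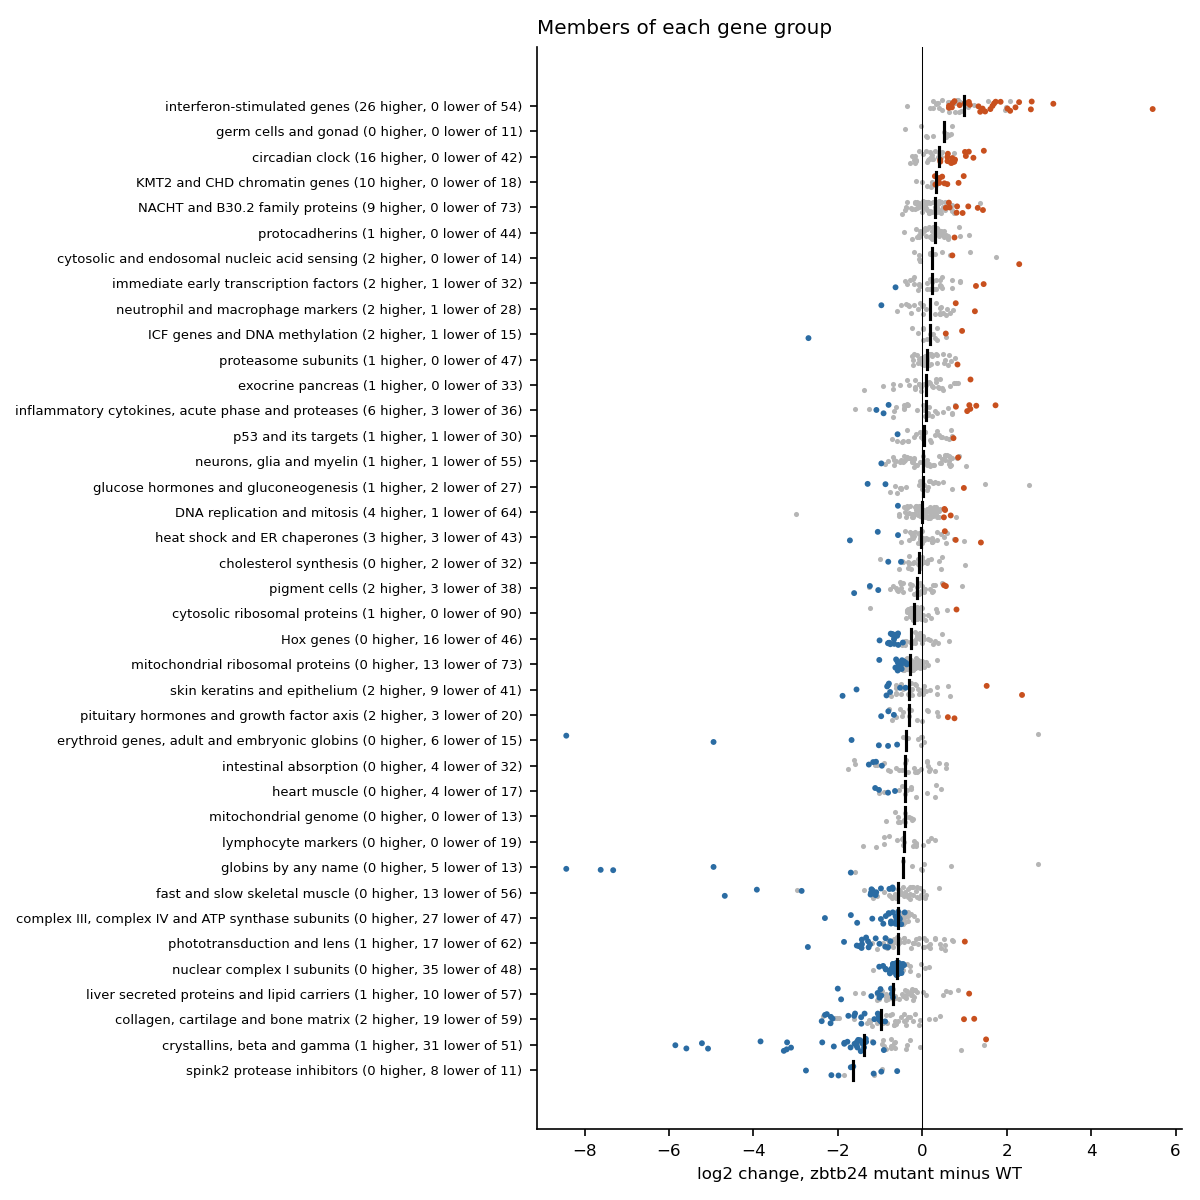
Change (zbtb24 mutant minus WT, log2) of every tested member of the groups with at least 10 members. Orange points were called higher, blue points lower and grey points not called, and black bars are medians, from interferon-stimulated genes at the top to spink2 inhibitors at the bottom. Complex I subunits lay in a narrow band below 0, and globins, crystallins and muscle genes each had a few members with far larger losses than the rest.

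The changes were then set beside the same changes without Mda5. The group means there came from other libraries, but both comparisons shared 1 fit and its estimate of spread. In double against mda5 mutants 29 of 21623 features were called (0.134%). For ISGs the median was 0.18, 0 of 54 were called in limma, 6 had an unadjusted p under 0.05 (share over all features not computed) and 9 were separated and higher (12% of all features). IRF7 had 15.4, 11.7 and 8.79 FPKM in double mutants, against 8.80, 6.69 and 5.91 FPKM in mda5 mutants. The groups overlapped, and the change was 0.69 ± 0.23 (SE, adjusted p = 0.30). The Mx gene mxe had 1.2, 1.19 and 0.454 FPKM in double mutants, against 0.504, 0.362 and 0.646 FPKM in mda5 mutants, so its groups overlapped too, with a change of 0.49 ± 0.27 (SE, adjusted p = 0.49). The difference between the change in both backgrounds was -2.10 (adjusted p = 0.094) for mxe and -1.33 (adjusted p = 0.10) for IRF7. No such difference passed for any feature in the main fit (0 of 21623 in limma, smallest adjusted p = 0.094, 5434 features or 25.1% with an unadjusted p under 0.05). It passed for 2161 features without WT replicate 2 and for 4932 when libraries were weighted. Over the 54 ISGs, 25 had an unadjusted p under 0.05 for that difference in the main fit. Thus 26 of 54 ISGs were called with Mda5 and 0 of 54 without it, while the test of the difference itself passed for 0 ISGs in the main fit.

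**Figure D5:**
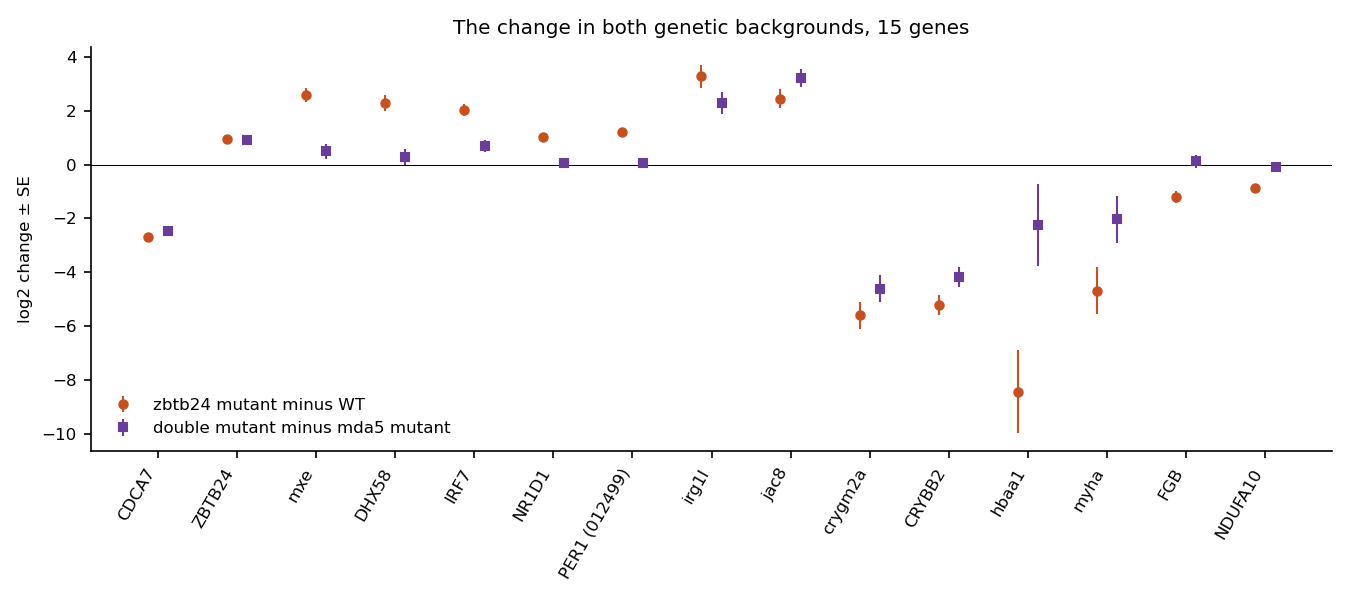
Change of 15 genes in zbtb24 mutants minus WT (orange circles, left) and in double minus mda5 mutants (purple squares, right), as log2 change ± SE from limma, n = 3 pools per genotype. CDCA7, irg1l, jac8 and the crystallins crygm2a and CRYBB2 lay far from 0 in both comparisons, while IRF7 was at 0.69 in double minus mda5 mutants, against 2.02 in zbtb24 mutants minus WT.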

How the data were processed

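Poly(A) RNA from 12 pools of larvae was made into strand-marked libraries and sequenced by the submitters. According to the methods and the submitters' processing notes, reads were trimmed with Trimmomatic 0.33 and mapped to GRCz10 with TopHat2 2.1.1, and gene levels were estimated with Cufflinks 2.2.1 and scaled by Cuffnorm. The authors deposited the result as FPKM values per gene for 32271 features, without counts, so no count model could be fitted and the methods give sequencing depth only as an average over samples, so the depth of a single library is not given in the sources used here. Of these features, 26418 were given a symbol through a table of Ensembl identifiers, and 3769 were listed at 0 in all libraries.

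Levels were transformed as log2(FPKM + 0.5) and tested in limma 3.58.1 (R 4.3.3) with one mean per genotype, moderated variances with a trend and 8 residual degrees of freedom. The contrasts were zbtb24 mutant minus WT, double mutant minus mda5 mutant, and their difference. All p-values are two-sided and adjusted by the Benjamini-Hochberg method over the 21623 features. The scripts were tested on simulated data. Python 3.11.15, pandas 2.3.3, numpy 2.4.6 and matplotlib 3.10.9 were used for tables and figures.

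The 34 gene lists, the comparison and the tests were chosen with earlier results of these data known. Further families were added after their values were seen, as stated where they appear. Genes were named if they belonged to the DNA methylation and ICF list, if they were among the 12 highest or 12 lowest changes of called genes with separated groups and at least 5 FPKM, or if they were among the 4 members with the smallest p of a list, and others were chosen after their values were seen. Some genes that this rule names are not reported here. Alternatives covered the pseudocount, the filter, the scaling, the variance model, library weights, a replicate block, a minimum change, the libraries in the fit and each library left out. Replicate numbers do not mark shared parents or days in the labels. The labels put the samples at 3 libraries per genotype, each a pool of 10 larvae aged 3 weeks.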

Additional observations from a re-analysis of the deposited data

How the results depend on the processing

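All 2502 called features kept their direction under every alternative in which they were tested. For the 2496 with separated groups only a change of scaling could have reversed it. The pseudocounts, the stricter filter, no filter, quantile normalization, median centring and the other variance models gave 2147 to 2535 calls, within 1.5 times of the main count. Larger shifts came from the choice of libraries. Leaving out 1 library gave 245 to 3477 calls (124 to 1915 higher and 121 to 1562 lower), the 6 compared libraries alone gave 221 (104 higher, 117 lower), weights per library gave 6404 (3208 higher, 3196 lower), and a minimum change of 2-fold left 573 (220 higher, 353 lower). The difference between both backgrounds was called for 0 features in the main fit, for 0 to 2161 when 1 library was left out and for 4932 with library weights. Leaving out zbtb24 mutant replicate 3 and WT replicate 2 together, an alternative chosen after seeing the data, gave 2880 and 2106 calls. That difference could not be fitted with the 6 libraries alone, and the causes of these shifts were not tested.

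Whether replicate numbers pair the samples is not given in the labels. Deviations of same-numbered zbtb24 mutant and WT libraries correlated across genes at -0.05, 0.016 and -0.077, values that cannot exclude shared parents or days. A replicate block, which also uses up residual degrees of freedom, gave 1578 calls (675 higher, 903 lower).

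ZBTB24 (0.94) and IFIH1 (0.71) were not called with the 6 libraries alone or with the 2-fold minimum, and the change of IFIH1 ranged over 0.62 to 0.80 when libraries were left out, where it missed the threshold without WT replicate 1, WT replicate 3 or zbtb24 mutant replicate 2. Some uncalled genes changed sign. With library weights the changes were 0.012 for DNMT3A (ENSDARG00000015566), -0.15 for dnmt3bb.3 and -0.045 for CCR9 (ENSDARG00000055186). With quantile normalization they were -0.016 for dnmt3ba, -0.070 for dnmt3bb.3 and 0.34 for MT-CO1. Leaving out libraries gave -0.38 to 0.12 for DNMT3A (ENSDARG00000015566), -0.10 to 0.21 for dnmt3ba, -0.12 to 0.14 for dnmt3bb.3, -0.10 to 0.23 for TET2, -0.064 to 0.22 for CCR9 (ENSDARG00000055186) and -0.12 to 0.68 for STAR.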
